A study of Mus musculus with 18 samples.

Results

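The 10 genes followed here belong to the p53 pathway and to stress apoptosis, and were measured in ribosome-associated mRNA of mouse spinal cord. They were taken by name from gene tables of 38924 genes: Trp53, its inhibitor Mdm2, the arrest genes Cdkn1a, Ccng1 and Gadd45a, the survival signalling inhibitor Phlda3, and the apoptosis genes Bax, Bbc3, Bcl2l11 and Tnfrsf10b. All 10 were present in all 18 tables, and all 10 passed the filter on low counts in every comparison. The question was whether the high Cdkn1a level of the mutant Chat-Cre pull-downs went with a rise of other p53 targets. It was addressed with 18 spinal cords of mice aged 8 weeks by the RiboTag method: cells that express Cre put a haemagglutinin tag on Rpl22, a protein of the large ribosomal subunit, and an antibody to the tag then recovers their ribosomes and bound mRNA.

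Every mouse carried 1 RiboTag allele of Rpl22 (Rpl+/-) on the mixed background B6;CASTxB6.129. Cre was driven by the Chat locus, which encodes the enzyme that makes acetylcholine, so the tag marks cholinergic neurons, among them motor neurons but also cholinergic interneurons. Gars encodes glycyl-tRNA synthetase, and the dominant P278KY allele models an inherited motor and sensory neuropathy. The groups were Cre P278KY (Chat-Cre, GarsP278KY/+, 3 mice), Cre WT (Chat-Cre, Gars+/+, 4 mice), NoCre P278KY (no Cre, GarsP278KY/+, 6 mice) and NoCre WT (no Cre, Gars+/+, 5 mice). The NoCre pull-downs hold RNA that came down without the tag. Replicate numbers only name mice.

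The transcription factor p53 is kept low by Mdm2, which marks it for degradation and is itself a p53 target. When p53 is stabilised, mostly at the protein level, it induces genes that stop the cell cycle, such as Cdkn1a, and genes that permeabilise mitochondria, such as Bax and Bbc3. Several of these genes also have inducers other than p53. Among the inducers are transcription factors of the integrated stress response, Atf4 for Cdkn1a and Ddit3 for Bbc3 and Tnfrsf10b, and FoxO factors for Bcl2l11. In neurons Bbc3 and Bcl2l11 are known as triggers of developmental and injury-related death.

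Cdkn1a was the 1 gene of the 10 that passed the test between the genotypes in Cre libraries. Its mean level was 198 ± 39.5 CPM (SD, n = 3; CPM are counts per 1000000, scaled by TMM) in Cre P278KY and 18.2 ± 14.7 CPM (n = 4) in Cre WT, and it rose by 3.42 on the log2 scale, a 10.7-fold difference. In a bulk pull-down more mRNA per cell and more of the cells that carry it, or for a lower level fewer cells of a type and less RNA per cell, cannot be told apart. The p53 pathway genes beside it did not pass: Trp53, Mdm2, Ccng1, Gadd45a, Phlda3, Bax and Bbc3 differed by 0.13 to 1.22 on the log2 scale. Bcl2l11, at 1.89, came closest to the threshold among the other 9.

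Depth and background set the frame for these values. The libraries held 14659532 to 24028695 counts in Cre and 8177817 to 14450218 in NoCre, of which mitochondrial ribosomal RNA took 1.36% to 4.88% and 24.2% to 53.8%. Chat was at 105 ± 12.6 CPM in Cre P278KY and 122 ± 43.9 CPM in Cre WT, against 2.88 and 7.90 CPM in the NoCre groups, and the tagged protein's gene Rpl22 was at 34.7, 32.7, 18.7 and 23.6 CPM in Cre P278KY, Cre WT, NoCre P278KY and NoCre WT. Gars was at 274 ± 23.1 CPM in Cre P278KY and 139 ± 29.3 CPM in Cre WT, which does not check the labels, since the P278KY allele is expressed. The index sequences in the library descriptions repeat once in order of library number, and this repeat was read as 2 sequencing pools: all 3 Cre P278KY libraries and Cre WT 1 and 2 were in pool 1, Cre WT 3 and 4 in pool 2. By Xist and Y-linked genes, Cre P278KY 1 and Cre WT 1 and 2 were male and the other 4 Cre libraries female. NoCre libraries were male in pool 1 and female in pool 2, without exception, so pool and sex cannot be told apart there. The same holds within Cre WT, where Cre WT 3 and 4 also share the first number of the mouse name. Comparisons within pool 1 set Cre P278KY 1, a male, and Cre P278KY 2 and 3, females, against male Cre WT libraries.

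Cre WT 3 and 4 stood apart from Cre WT 1 and 2. The summed level of 7 oligodendrocyte markers was 745 and 1177 CPM in Cre WT 1 and 2 and 3597 and 4071 CPM in Cre WT 3 and 4, against 697 to 1755 CPM in Cre P278KY and 8051 to 13093 CPM in NoCre. The 6 astrocyte markers summed to 152 and 258 CPM in Cre WT 1 and 2, 931 and 679 CPM in Cre WT 3 and 4, and 173 to 480 CPM in Cre P278KY. The 7 vascular markers summed to 13.02 and 13.5, 62.2 and 73.7, and 10.6 to 26.3 CPM in the same order. The 8 microglial markers summed to 9.81 to 15.8 CPM over all Cre libraries, with Aif1 at 0 in 1 Cre P278KY library and Tmem119 at 0 in 1 Cre WT library, and to 91.4 to 155 CPM in NoCre. The 6 cholinergic markers summed to 1086 to 1358 CPM in Cre P278KY and 1105 to 2038 CPM in Cre WT. They summed to 28.8 to 43.6 CPM in NoCre P278KY and 63.8 to 71.7 CPM in NoCre WT, ranges that did not overlap. Between the genotypes 1 of the 6 was called lower in Cre P278KY, at -2.53 on the log2 scale, and 2 in NoCre P278KY. That 1 was Chodl, at 62.9 to 79.1 CPM in Cre P278KY and 248 to 600 CPM in Cre WT. No oligodendrocyte, astrocyte, vascular or cholinergic marker was at 0 in any library. Genotype differences in Cre are therefore given over both pools and within pool 1, where 3 Cre P278KY libraries are set against 2 Cre WT libraries. Pool 2 holds no Cre P278KY library.

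Sequences just upstream of RefSeq transcription starts are shown because p53 acts through a degenerate decamer, the p53 consensus half-site. A response element holds a pair of them. RefSeq promoter windows (GRCm38.p6, 250 bases before to 50 bases after a transcription start) existed for 9 of the 10 genes, 13 windows in all, Tnfrsf10b having no entry. A half-site, which reads the same on both strands, was matched in 1 window each of Trp53, Mdm2, Cdkn1a, Ccng1, Gadd45a and Bax, 6 of 13 windows, and in 8.36% of the 32851 promoter windows of the reference. Pairs of half-sites with 0 to 13 bases between them were matched in 24 windows (0.0731%), and among the 10 genes in Cdkn1a only, with 12 bases between them. The 250 bases before the start are given 5′ to 3′ on the gene's strand for Cdkn1a, which rose, for Bax, which has 1 half-site and did not pass the test, and for Bcl2l11, which has none. Capitals mark the half-sites, which are exact matches to the consensus.
Cdkn1a upstream start, chr17:29090729-29090978, plus strand: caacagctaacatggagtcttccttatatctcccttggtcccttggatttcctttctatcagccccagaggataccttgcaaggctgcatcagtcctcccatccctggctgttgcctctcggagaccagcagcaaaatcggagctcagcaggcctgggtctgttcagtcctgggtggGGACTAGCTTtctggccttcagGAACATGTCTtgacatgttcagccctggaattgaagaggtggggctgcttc
Bax, chr7:45466899-45467148, minus strand: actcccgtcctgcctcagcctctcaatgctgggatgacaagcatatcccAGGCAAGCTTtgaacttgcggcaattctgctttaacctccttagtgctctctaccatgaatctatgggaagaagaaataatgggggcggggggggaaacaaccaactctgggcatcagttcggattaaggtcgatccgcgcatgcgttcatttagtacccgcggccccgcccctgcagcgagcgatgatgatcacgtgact
Bcl2l11, chr2:128125788-128126037, plus strand: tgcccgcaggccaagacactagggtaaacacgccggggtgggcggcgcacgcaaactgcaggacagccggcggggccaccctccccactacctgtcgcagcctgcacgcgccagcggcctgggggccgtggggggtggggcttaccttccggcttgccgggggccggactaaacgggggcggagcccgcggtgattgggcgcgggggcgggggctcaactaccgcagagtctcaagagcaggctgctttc

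The half-sites themselves differ in their outer bases, and they are set one under the other for that reason. Each has its place in GRCm38.p6 on the gene's strand, with distances counted from the RefSeq start. For Gadd45a the RefSeq start lies inside the GENCODE gene (chr6:67035096-67037457), and so does the half-site.
Cdkn1a, chr17:29090906-29090915, 73 to 64 bases before the start: GGACTAGCTT
Cdkn1a, chr17:29090928-29090937, 51 to 42 bases before the start: GAACATGTCT
Trp53, chr11:69580284-69580293, 75 to 66 bases before the start: GGACTTGCCC
Mdm2, chr10:117710935-117710944, 186 to 177 bases before the start: GAACTTGCCT
Ccng1, chr11:40755462-40755471, 185 to 176 bases before the start: GGGCAAGCCT
Gadd45a, chr6:67037438-67037447, 40 to 31 bases before the start: GGGCTAGCCC
Bax, chr7:45467090-45467099, 201 to 192 bases before the start: AGGCAAGCTT

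Cdkn1a has a second RefSeq start at position 29093769 of chromosome 17, and the pair of half-sites lies 2854 and 2832 bases upstream of it, counted from the last base of each. A distal p53 response element of Cdkn1a has been described in that upstream region, and whether the marked pair is that element was not tested. The search took exact matches only. In the printed sequence the decamer tgacatgttc follows GAACATGTCT directly, departs from the consensus at its first base only, and so was not matched. The window of the second start held no half-site, nor did those of Phlda3, Bbc3 (3 windows) and Bcl2l11 (2 windows). The amino acid response sequence TGATGCAA, searched on both strands, was in none of the 13 windows and in 0.895% of all windows, and the cyclic AMP response sequence TGACGTCA, which reads the same on both strands, in none of the 13 and in 1.79% of all. A match is a description of these letters in this window, not a bound site, and response elements outside the windows were not searched.

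The level of p53 mRNA was followed first. Trp53 (chr11:69580359-69591873), which encodes p53, was at 28.0, 27.5 and 44.8 CPM in Cre P278KY 1 to 3 and at 22.0, 30.3, 18.8 and 31.5 CPM in Cre WT 1 to 4. The groups overlapped, and only Cre P278KY 3 lay above every Cre WT library. The difference was 0.40 on the log2 scale (95% interval -0.17 to 0.96, edgeR adjusted p = 0.487) and 0.43 within pool 1 (adjusted p = 0.327). Mdm2 (chr10:117688875-117710758), the ubiquitin ligase that holds p53 down and responds to it, was at 41.6, 49.2 and 33.3 CPM in Cre P278KY and at 32.6, 20.0, 47.4 and 42.3 CPM in Cre WT. These ranges overlapped nearly throughout, with the 2 lowest values in Cre WT 1 and 2. Mdm2 differed by 0.23 on the log2 scale (interval -0.45 to 0.91, adjusted p = 0.775), and by 0.72 within pool 1 (adjusted p = 0.123). Reads of Mdm2 were split among sequences in 17 of the 18 libraries, where its deposited count was not whole, so part of its count is an estimate. The same held for Trp53 in 6 of the 18.

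**Figure D1:**
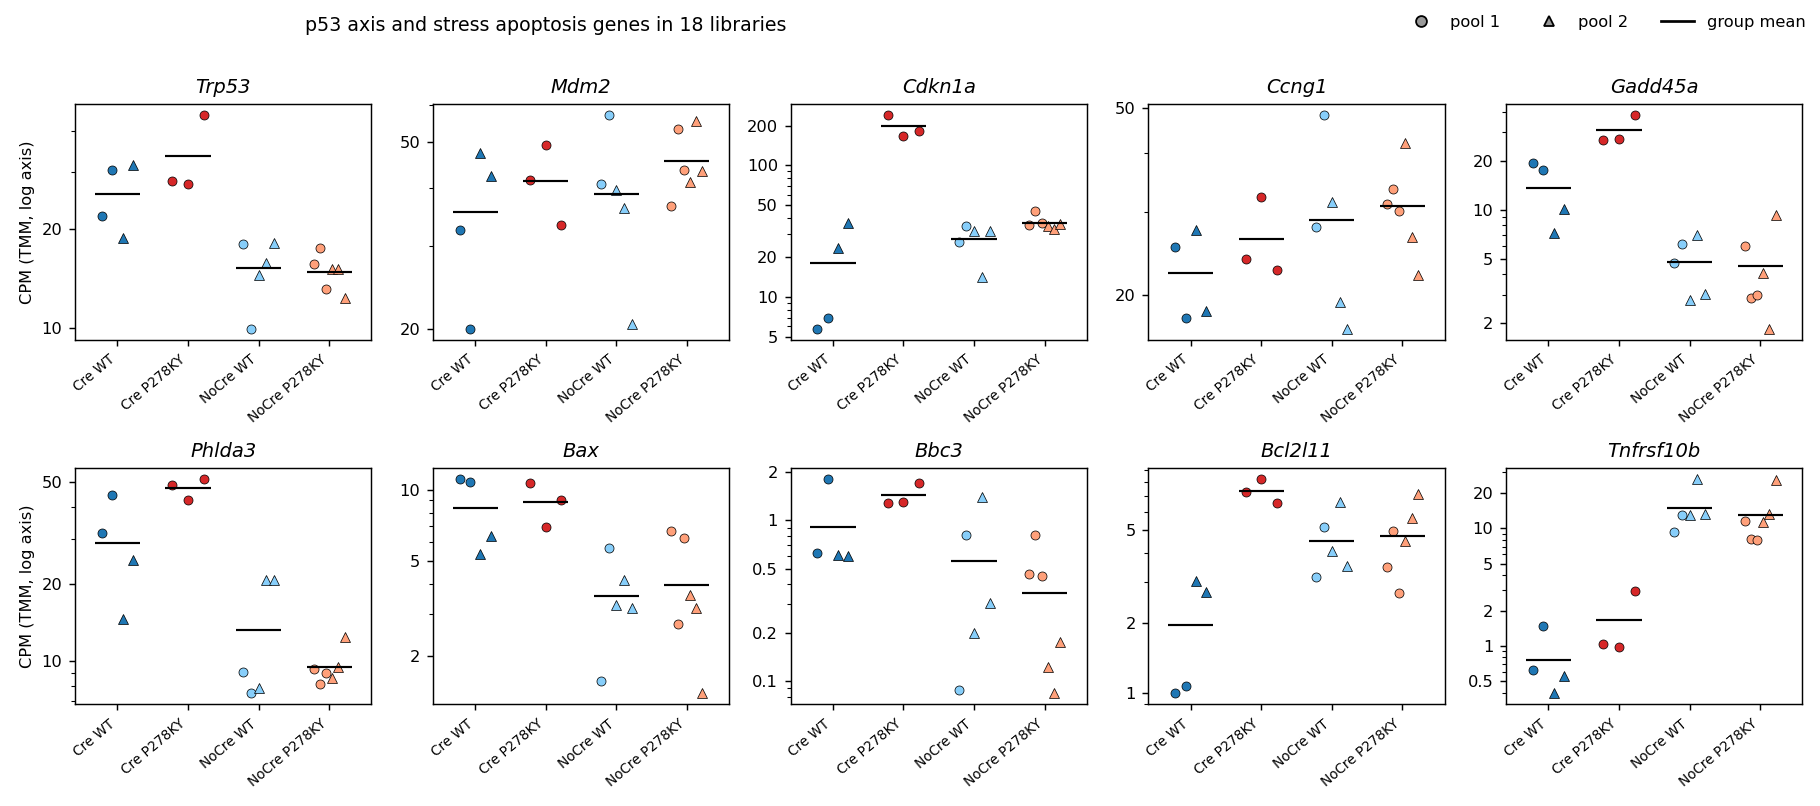
Level of each of the 10 genes in every library, in CPM on a log axis, by group; circles are pool 1, triangles pool 2, and bars the group mean. Cdkn1a in the 3 Cre P278KY libraries (168 to 243 CPM) lies above all other libraries (5.73 to 44.9 CPM), while Mdm2, Ccng1 and Bax overlap between the Cre groups.

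Cdkn1a (chr17:29090976-29100727) encodes p21, an inhibitor of cyclin-dependent kinases and the best known arrest gene under p53. It was at 243, 168 and 184 CPM in Cre P278KY 1 to 3, at 5.73 and 6.92 CPM in Cre WT 1 and 2, and at 23.7 and 36.6 CPM in Cre WT 3 and 4. In NoCre P278KY it ranged from 32.9 to 44.9 CPM (median 35.6, n = 6), and in NoCre WT from 14.1 to 34.8 CPM (median 31.5, n = 5). All 3 Cre P278KY libraries were above every other library, and the 2 lowest of the 18 were Cre WT 1 and 2. The rise in Cre libraries was 3.42 ± 0.67 (SE) on the log2 scale, with a 95% interval of 1.88 to 4.96 and an edgeR adjusted p of 0.0443.

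The size of the Cdkn1a rise depended on which Cre WT libraries it was set against. Within pool 1 it was 5.05 (adjusted p = 1.4e-06). With pool as a term it was also 5.05 (adjusted p = 2.96e-06), which is not a separate result: pool 2 holds no Cre P278KY library, so both set the same libraries against each other. The pool 2 Cre WT libraries, the ones with more oligodendrocyte, astrocyte and vascular marker RNA, had the higher Cdkn1a levels of the Cre WT group. The part of those markers in the Cre WT levels was not tested; the Cdkn1a level of the NoCre libraries, in which the markers were highest, was 14.1 to 44.9 CPM. With sex as a term the rise was 3.71 (adjusted p = 0.0294). The call was lost when any 1 Cre P278KY library was left out (adjusted p = 0.148, 0.126 and 0.109 without 1, 2 and 3), without Cre WT 2 (0.0734) or Cre WT 3 (0.146), with library-size scaling alone (0.0882) and with no filter on low counts (0.18). The difference stayed between 2.80 and 5.05 over all 19 alternatives, of which 12 passed. The 2.80 came with mouse number as a block, where genotype and pool cannot be told apart.

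The same contrast was made without Cre. Among NoCre libraries Cdkn1a differed by 0.40 between the genotypes (interval -0.33 to 1.14, adjusted p = 0.803). The genotype difference in Cre exceeded that in NoCre by 3.03 (interval 1.86 to 4.20, adjusted p = 0.0119), and by 4.64 within pool 1 (adjusted p = 5.3e-07). This term lost its call without Cre P278KY 1 (adjusted p = 0.0514), with library-size scaling alone (0.251) and with no filter on low counts (0.0563), and it passed in the other 26 of 29 alternatives. Cdkn1a was the 1 member of the 10 called in this term. Of all 17133 genes tested for it, 0.344% were called higher and 0.309% lower.

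Ccng1 (chr11:40748552-40755311) encodes cyclin G1, which takes part in the feedback on p53 and is among its most regular targets. It was at 23.8, 32.2 and 22.6 CPM in Cre P278KY and at 25.2, 17.8, 27.4 and 18.5 CPM in Cre WT. The groups overlapped, and the difference was 0.26 (interval -0.25 to 0.78, adjusted p = 0.637), or 0.35 within pool 1 (adjusted p = 0.436). The upper end of that interval lies below the lower end of the Cdkn1a interval, as it does for Trp53, Mdm2 and Bax, and for Phlda3.

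Gadd45a (chr6:67035096-67037457) encodes a stress protein of growth arrest and DNA repair that p53 and other factors induce. It was at 26.9, 27.0 and 38.3 CPM in Cre P278KY, at 19.4 and 17.5 CPM in Cre WT 1 and 2 and at 7.19 and 10.1 CPM in Cre WT 3 and 4. The groups did not overlap, and the lowest values were those of the 2 Cre WT libraries of pool 2. The difference was 1.22 (interval 0.51 to 1.93), which missed the threshold (adjusted p = 0.0850), and it was 0.80 within pool 1 (adjusted p = 0.0547). It passed in 5 of 19 alternatives, among them DESeq2 (1.21, adjusted p = 0.0132) and sex as a term (1.40, adjusted p = 0.0265). The gene E230016M11Rik lies over Gadd45a on the opposite strand, and whether the counting used strand is not given in the sources used here, so their reads may not be told apart. Deposited counts of Gadd45a were not whole in 17 of the 18 libraries, so part of its count is an estimate.

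Phlda3 (chr1:135766119-135769136) encodes a p53-induced protein that competes with the survival kinase Akt for membrane lipids. It was at 48.8, 42.4 and 51.3 CPM in Cre P278KY, at 31.5 and 44.4 CPM in Cre WT 1 and 2 and at 14.7 and 24.8 CPM in Cre WT 3 and 4. Cre WT 2 lay above Cre P278KY 2, so the groups overlapped. The difference was 0.76 (interval 0.10 to 1.43, adjusted p = 0.242) and 0.40 within pool 1 (adjusted p = 0.258). As with Gadd45a, the pool 2 Cre WT libraries were the lowest of the 7, opposite to their place for Cdkn1a.

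Bax (chr7:45461697-45466898), the pore-forming effector that opens the outer mitochondrial membrane, was at 10.7, 6.98 and 9.06 CPM in Cre P278KY and at 11.1, 10.7, 5.36 and 6.37 CPM in Cre WT. The 2 highest of the 7 values were in Cre WT 1 and 2 and the 2 lowest in Cre WT 3 and 4. Bax differed by 0.13 (interval -0.55 to 0.81, adjusted p = 0.883), and within pool 1 by -0.22 (adjusted p = 0.673).

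Bbc3 and Bcl2l11 encode BH3-only proteins, which set off Bax. Bbc3 (chr7:16308393-16318205), or Puma, was at 1.28, 1.31 and 1.72 CPM in Cre P278KY and at 0.623, 1.81, 0.609 and 0.603 CPM in Cre WT, from 84 and 66 reads in all. Cre WT 1, 3 and 4 were below the mutant libraries and Cre WT 2 was above them. The difference was 0.73 (interval -0.47 to 1.92, adjusted p = 0.556) and 0.33 within pool 1 (adjusted p = 0.801); at this depth the interval spans both a fall and a rise.

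Bcl2l11 (chr2:128126038-128162547), or Bim, was at 7.25, 8.28 and 6.52 CPM in Cre P278KY, at 0.997 and 1.07 CPM in Cre WT 1 and 2 and at 3.02 and 2.71 CPM in Cre WT 3 and 4. NoCre libraries were at 2.69 to 7.15 CPM in P278KY (median 4.70) and 3.14 to 6.57 CPM in WT (median 4.08). The Cre groups did not overlap, and as for Cdkn1a the pool 1 Cre WT libraries were the lowest of all 18. The difference was 1.89 (interval 0.90 to 2.88), a 3.71-fold one that missed the threshold (adjusted p = 0.0603). Within pool 1 it was 2.90 and passed (adjusted p = 0.00139). With pool as a term it was 2.90 (adjusted p = 0.000831), as for Cdkn1a not a separate result. By DESeq2 it was 1.90 (adjusted p = 0.00173), and it passed in 8 of 19 alternatives. Against the NoCre difference of 0.07 the Cre difference was larger by 1.82 (adjusted p = 0.145), and within pool 1 by 3.00 (adjusted p = 0.0165).

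Tnfrsf10b (chr14:69767472-69784411) encodes the mouse TRAIL receptor, a death receptor of the cell surface. It was at 1.04, 0.979 and 2.95 CPM in Cre P278KY and at 0.623, 1.48, 0.396 and 0.559 CPM in Cre WT, from 89 and 54 reads. The highest value, in Cre P278KY 3, stood apart from the other 2, and the groups overlapped through Cre WT 2. The difference was 1.17 (interval -0.21 to 2.55, adjusted p = 0.399), and 0.72 within pool 1 (adjusted p = 0.582). In NoCre libraries the gene was at 7.98 to 26.3 CPM, so all Cre values lay below all NoCre values. Its deposited counts were not whole in any of the 18 libraries.

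**Figure D2:**
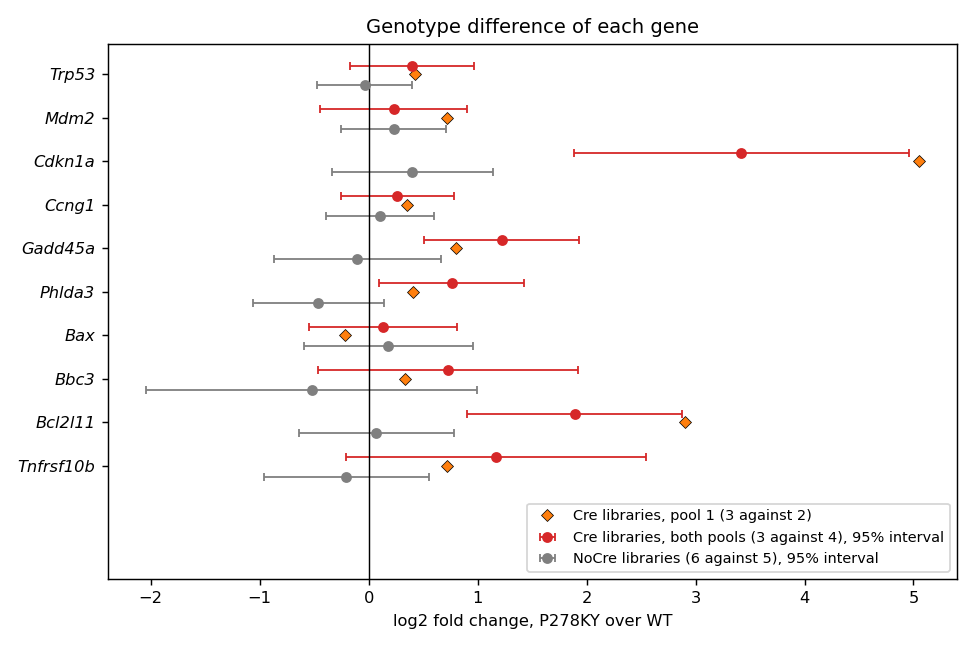
Log2 fold change of P278KY over WT for each of the 10 genes in Cre libraries and in NoCre libraries, with 95% intervals from edgeR, and in the Cre libraries of pool 1 alone (diamonds, no interval drawn). The intervals of Cdkn1a, Bcl2l11, Gadd45a and Phlda3 in Cre libraries lie above 0, of which Cdkn1a passed after adjustment, and every NoCre interval covers 0.

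As a group, 1 of the 10 genes was called higher in Cre P278KY and 0 lower, where 1.22% of the 14717 genes tested were called higher and 1.11% lower. The 1 called was Cdkn1a, whose rise was known when the 10 were chosen, so its call is not independent evidence. It is also part of the counts of higher genes in Cre libraries that follow. Of the 10, 4 had an unadjusted p under 0.05, as did 16.2% of all genes tested, and 3 (Cdkn1a, Gadd45a and Bcl2l11) did not overlap between the groups with P278KY higher, as did 8.20% of all. Within pool 1, 2 of the 10 were called higher (Cdkn1a and Bcl2l11) and 0 lower, where 4.30% of the 14753 genes tested were called higher and 4.81% lower. All 10 differences were above 0, as were 7198 of the 14717 genes tested. The median of the 10 was 0.74 on the log2 scale against -0.01 over all genes, but Bax was below 0 within pool 1. Among NoCre libraries none of the 10 passed with edgeR, which called 0.0233% of all genes, none passed with DESeq2, which called 0.164%, and none had an unadjusted p under 0.05. There 5 of the 10 differences were above 0.

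The levels of the genes relative to each other were read from the deposited TPM values, which are per length and are not rescaled between libraries. In Cre P278KY the order was Cdkn1a at 399.9 TPM, Phlda3 at 66.5, Gadd45a at 40.9, Trp53 at 28.8, Mdm2 at 24.2, Bax at 17.8, Ccng1 at 11.8, Bcl2l11 at 2.60, Bbc3 at 1.50 and Tnfrsf10b at 0.727. In that order the ranges over the 3 libraries overlapped between Trp53 and Mdm2, between Mdm2 and Bax and between Bax and Ccng1, and at no other step. In Cre WT Cdkn1a was at 43.0 TPM, with a range of 7.83 to 85.1 that held the ranges of Phlda3 (25.5 to 39.1), Trp53 (14.1 to 32.8), Mdm2 (8.34 to 38.9), Gadd45a (15.2 to 19.1) and Bax (13.5 to 17.0). Ccng1 was at 10.1 TPM, and Bcl2l11, Bbc3 and Tnfrsf10b were again the lowest, at 0.948, 0.740 and 0.315 TPM. The ranges of these 3 overlapped in Cre WT. Cdkn1a also had the highest mean TPM of the 10 in both NoCre groups, 77.0 in P278KY and 45.6 in WT, ahead of Mdm2 at 28.8 and 20.6.

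The pull-down itself was compared with its background, Cre over NoCre within each genotype. In WT mice 4 of the 10 genes were higher in Cre (Trp53, Gadd45a, Phlda3 and Bax) and 2 lower (Bcl2l11 and Tnfrsf10b), where 28.5% of all genes tested were called higher and 31.2% lower. In P278KY mice 6 were higher (those 4, Cdkn1a and Bbc3) and Tnfrsf10b was lower, against 28.2% and 31.2% of all genes. Tnfrsf10b fell by 4.35 in WT (adjusted p = 3.2e-07) and by 2.99 in P278KY (adjusted p = 4.7e-05), and it was called in each pool of the WT comparison (-3.40 in pool 1 and -5.19 in pool 2). In the WT comparison it was the 1 member called in pool 2 alone.

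Cdkn1a rose over background in P278KY by 2.43 (adjusted p = 3.7e-05) and was at -0.60 in WT (adjusted p = 0.193). In WT the pools differed, with -2.25 in pool 1 (adjusted p = 1.1e-06) and 0.21 in pool 2 (adjusted p = 0.699). Bcl2l11 fell by 1.16 in WT (adjusted p = 0.0137), and by 1.97 within pool 1 (adjusted p = 0.002), and at -0.72 within pool 2 it missed the threshold (adjusted p = 0.325). In P278KY Bcl2l11 was at 0.65 (adjusted p = 0.143), and within pool 1 at 1.03 it passed (adjusted p = 0.0173). Gadd45a rose by 1.52 in WT (adjusted p = 0.00244) and by 2.81 in P278KY (adjusted p = 4.8e-06), Phlda3 by 1.15 (adjusted p = 0.00365) and 2.33 (adjusted p = 3.2e-06), and Trp53 by 0.75 (adjusted p = 0.00746) and 1.17 (adjusted p = 0.000218). Within pool 2 of the WT comparison these 3 were at 1.02, 0.26 and 0.63 and missed the threshold (adjusted p = 0.241, 0.691 and 0.177), while within pool 1 they passed at 1.79, 2.21 and 0.91 (adjusted p = 0.000266, 1.4e-06 and 0.0197). Bax was higher in WT at 1.23 (adjusted p = 0.0125) and in P278KY at 1.14 (adjusted p = 0.0198), and in WT it passed within pool 1 (1.64, adjusted p = 0.0116) and not within pool 2 (0.71, adjusted p = 0.354), and in P278KY it did not pass within pool 1 (0.80, adjusted p = 0.0915). Bbc3 was higher in P278KY at 1.95 (adjusted p = 0.0296) but at 1.33 within pool 1 (adjusted p = 0.140). Mdm2 and Ccng1 were not called in either genotype over both pools, and both were lower in WT within pool 1, at -0.86 (adjusted p = 0.0163) and -0.78 (adjusted p = 0.0251).

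**Figure D3:**
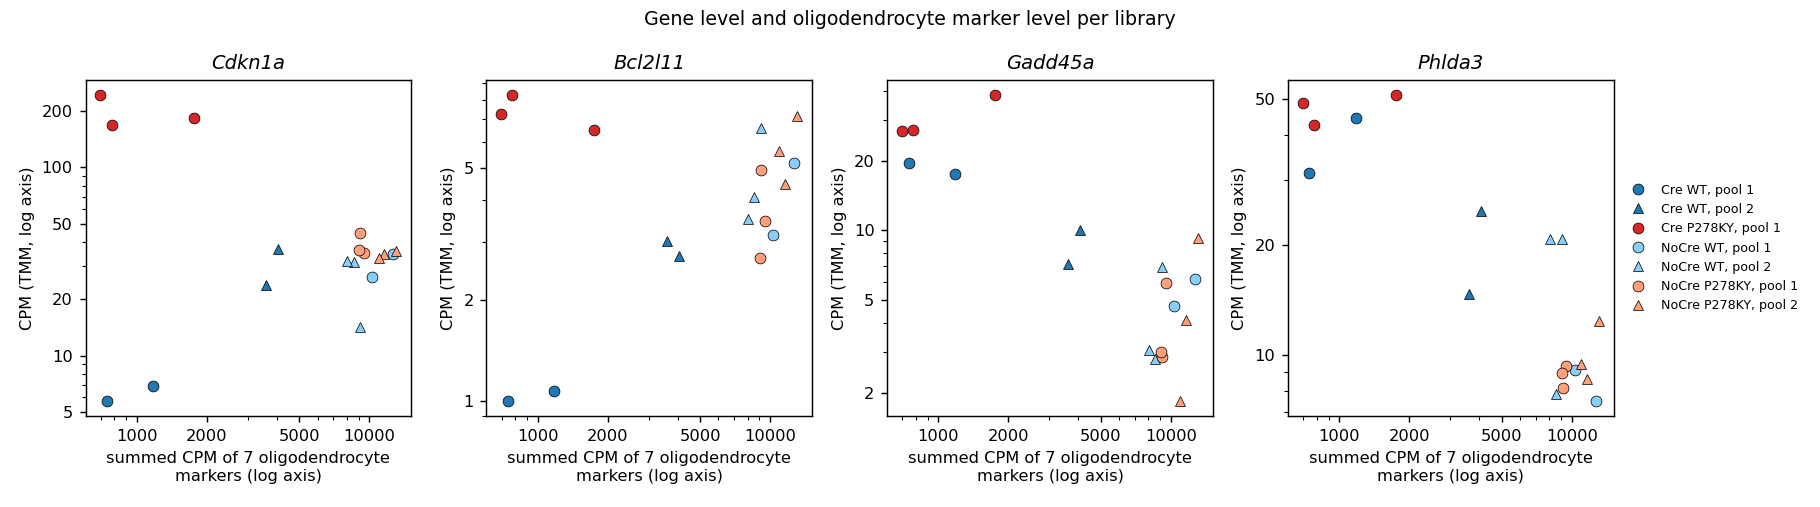
CPM of Cdkn1a, Bcl2l11, Gadd45a and Phlda3 in each of the 18 libraries against the summed CPM of 7 oligodendrocyte markers, both on log axes, coloured by group and shaped by pool. Cre WT libraries of pool 2 (3597 and 4071 CPM of the markers) lie nearer to the NoCre libraries than those of pool 1, upward for Cdkn1a and Bcl2l11 and downward for Gadd45a and Phlda3, and the 3 Cre P278KY libraries lie beside the pool 1 ones on the marker axis.

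The wider p53 response was followed with 32 other p53 targets, of which 30 were tested in Cre libraries. Of these, 2 rose and none fell, with a median of 0.41 over the 30, where 1.22% of all genes tested were called higher and 1.11% lower. Of the 30, 23 were above 0, as were 7198 of all 14717 genes tested. An unadjusted p under 0.05 was found for 9, as for 16.2% of all genes tested. The groups did not overlap for 11 with P278KY higher, as for 8.20% of all genes. They did not overlap for 3 with P278KY lower, as for 1244 of all 14717 genes. The shares of all genes apply to every list below. Sesn2, a leucine sensor and mTORC1 inhibitor that Atf4 also induces, was at 40.5 to 43.7 CPM in Cre P278KY and 7.66 to 10.1 CPM in Cre WT, and rose by 2.31 (adjusted p = 0.000299; 2.29 within pool 1). Gdf15, a secreted stress cytokine that Atf4 and Ddit3 also induce, had 609 reads in Cre P278KY and 3 in Cre WT. The read ratio was 284 (95% counting interval 96.8 to 1382), and by edgeR Gdf15 rose by 7.93 on the log2 scale (adjusted p = 0.000472). Sesn2 and Gdf15 kept their calls in all 19 alternatives. Plk2, a polo-like kinase, was at 1.09 over both pools (adjusted p = 0.0970) and passed within pool 1, at 1.35 (adjusted p = 0.0239). Abhd4, a lipid hydrolase, was at -1.01 (adjusted p = 0.167), and at -0.42 within pool 1 (adjusted p = 0.418). Within pool 1, 4 of the 30 rose, Sesn2, Gdf15, Plk2 and Apaf1, and none fell, against 4.30% and 4.81% of all genes.

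Of 19 regulators of p53, 18 were tested. Over both pools none passed, 3 having an unadjusted p under 0.05, with a median of -0.08, while within pool 1 Mdm4 rose and Ppp1r13b fell. Mdm4, the partner of Mdm2, was at 0.64 over both pools (adjusted p = 0.232) and 1.01 within pool 1 (adjusted p = 0.0221). Ppp1r13b, which encodes the p53 cofactor Aspp1, was at -0.84 (adjusted p = 0.0705) and -0.87 within pool 1 (adjusted p = 0.0349). Rchy1, another ubiquitin ligase for p53, was at 0.62 (adjusted p = 0.180) and 0.68 (adjusted p = 0.110), and the inhibitory family member Ppp1r13l at -0.81 (adjusted p = 0.336) and -1.19 (adjusted p = 0.0604), over both pools and within pool 1.

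Of 16 further BCL2 family genes, 14 were tested, and 1 rose over both pools. Hrk, a BH3-only gene of neurons induced by trophic factor withdrawal, was at 9.14, 12.04 and 10.98 CPM in Cre P278KY and at 2.87, 1.15, 1.65 and 3.83 CPM in Cre WT. The groups did not overlap, and Hrk rose by 2.16 (adjusted p = 0.0241; 2.44 within pool 1), a call that was lost in 5 of 19 alternatives, with adjusted p-values up to 0.120. Pmaip1, or Noxa, a BH3-only p53 target, was at 1.69 (adjusted p = 0.237; 1.50 within pool 1, adjusted p = 0.351), and the survival gene Bcl2l2 at 0.44 (adjusted p = 0.222; 0.42 within pool 1, adjusted p = 0.201). Bnip3 was at -0.61 over both pools (adjusted p = 0.178) and fell within pool 1, by 0.84 (adjusted p = 0.0179). The third gene called within pool 1 was the survival gene Bcl2, named after its values were seen, which rose there by 0.99 (adjusted p = 0.0410). The median of the 14 was 0.29 over both pools and also 0.29 within pool 1.

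Among 18 tested genes of caspases and the apoptosome (19 listed) none rose and 1 fell over both pools, with a median of -0.21. Dffa, which encodes the chaperone and inhibitor of the apoptotic nuclease, was at 82.3, 83.8 and 99.8 CPM in Cre P278KY and at 262, 399.6, 262 and 248 CPM in Cre WT. The groups were far apart, and Dffa fell by 1.69 (adjusted p = 0.00216; -1.82 within pool 1), with its call kept in all 19 alternatives. Apaf1, the scaffold of the apoptosome, was at 0.70 over both pools (adjusted p = 0.447) and rose within pool 1, by 1.46 (adjusted p = 0.0443). Casp9, the caspase it activates, was at -0.43 (adjusted p = 0.449), and at -0.15 within pool 1 (adjusted p = 0.785). Within pool 1, where 17 were tested, Xiap, a caspase inhibitor named after its values were seen, was also called, at 0.94 (adjusted p = 0.0390).

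Of 12 death receptor genes 8 were tested. Over both pools none passed, 2 having an unadjusted p under 0.05, and both passed within pool 1. Tnfrsf21, a death receptor of neurons, was at -0.88 over both pools (adjusted p = 0.0638) and -1.10 within pool 1 (adjusted p = 0.00753). The neurotrophin receptor gene Ngfr was at 1.59 (adjusted p = 0.125) and 1.95 within pool 1 (adjusted p = 0.0337). Cflar and Ripk1, regulators of caspase activation, were at 0.44 and -0.93 over both pools (adjusted p = 0.539 and 0.550) and at 0.83 and -0.38 within pool 1 (adjusted p = 0.109 and 0.839).

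Of the cell cycle genes around p21, none passed over both pools and 6 passed within pool 1. Of 7 other CDK inhibitors 5 were tested, with 1 at an unadjusted p under 0.05 and a median of -0.19. Cdkn1b, which encodes the CDK inhibitor p27, was at 0.87 over both pools (adjusted p = 0.148) and rose within pool 1, by 1.27 (adjusted p = 0.0109). Cdkn1c, Cdkn3 and Cdkn2d were at -1.86, -1.18 and -0.19 over both pools (adjusted p = 0.341, 0.431 and 0.771) and at 0.23, -1.53 and -0.52 within pool 1 (adjusted p = 0.884, 0.286 and 0.128).

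Of 26 cyclin and proliferation genes 20 were tested, 4 of them with an unadjusted p under 0.05 and with a median of -0.14, and within pool 1 the median was 0.08, with 3 called higher and 2 lower. The G1 cyclin genes Ccnd1 and Ccnd2 were at 0.78 (adjusted p = 0.0610) and 1.53 (adjusted p = 0.143) over both pools, and rose within pool 1 by 0.79 (adjusted p = 0.0452) and 2.28 (adjusted p = 0.0212). E2f1, a cell cycle transcription factor, and Birc5, which marks dividing cells, were at -1.20 (adjusted p = 0.130) and -1.61 (adjusted p = 0.139) over both pools. Within pool 1 they passed at -1.58 (adjusted p = 0.0104) and -1.97 (adjusted p = 0.0461). Rb1, the retinoblastoma gene, named after its values were seen, was the third called higher within pool 1 (0.97, adjusted p = 0.0371). Birc5 was at 0.616 to 1.31 CPM in Cre P278KY and 1.55 to 4.04 CPM in Cre WT. E2f1 was at 3.43 to 6.21 CPM in Cre P278KY, 7.37 to 17.7 CPM in Cre WT and 0.523 to 5.98 CPM in NoCre. The 5 markers of dividing cells, Birc5 among them and E2f1 not, summed to 2.80 to 12.6 CPM in Cre P278KY and 5.58 to 19.8 CPM in Cre WT. In NoCre they summed to 12.8 to 98.0 CPM.

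Stress genes that were not on the list of p53 targets were followed last, and whether p53 acts on them was not tested. Of 6 GADD genes beside Gadd45a, Ddit3, or Chop, a transcription factor of the integrated stress response, rose by 2.63 (adjusted p = 0.000472; 2.81 within pool 1), from 3.70 to 6.06 CPM in Cre WT to 25.6 to 30.1 CPM in Cre P278KY. Gadd45g, Ddit4 and Ppp1r15a were at 1.03, 0.86 and 0.53 (adjusted p = 0.0678, 0.232 and 0.433), and at 0.76, 0.54 and 0.30 within pool 1 (adjusted p = 0.0795, 0.345 and 0.638). Of 19 stress transcription factor genes, all tested, 5 rose and none fell, with a median of 0.59, where 1.22% of all genes tested were called higher and the median of all was -0.01. They were Atf5 (2.90, adjusted p = 0.000247), Ddit3, Atf3 (3.97, adjusted p = 0.00704), Nupr1 (4.30, adjusted p = 0.0105) and, named after its values were seen, Atf4 (1.84, adjusted p = 0.0105). Atf4 was at 181 to 246 CPM in Cre P278KY and 34.6 to 92.4 CPM in Cre WT. Several of these genes were known to be high in these libraries when the list was written, so their count is not independent evidence. The call of Nupr1 was lost in 5 of 19 alternatives and that of Atf3 in 1. Within pool 1 all 5 passed again, at 3.07 for Atf5, 2.81 for Ddit3, 4.34 for Atf3, 5.80 for Nupr1 and 1.45 for Atf4, and 8 of the 19 were called higher and 1 (E2f1) lower, against 4.30% and 4.81% of all genes. The 3 further ones called higher there, named after their values were seen, were Cebpg, Atf6 and Trib3.

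**Figure D4:**
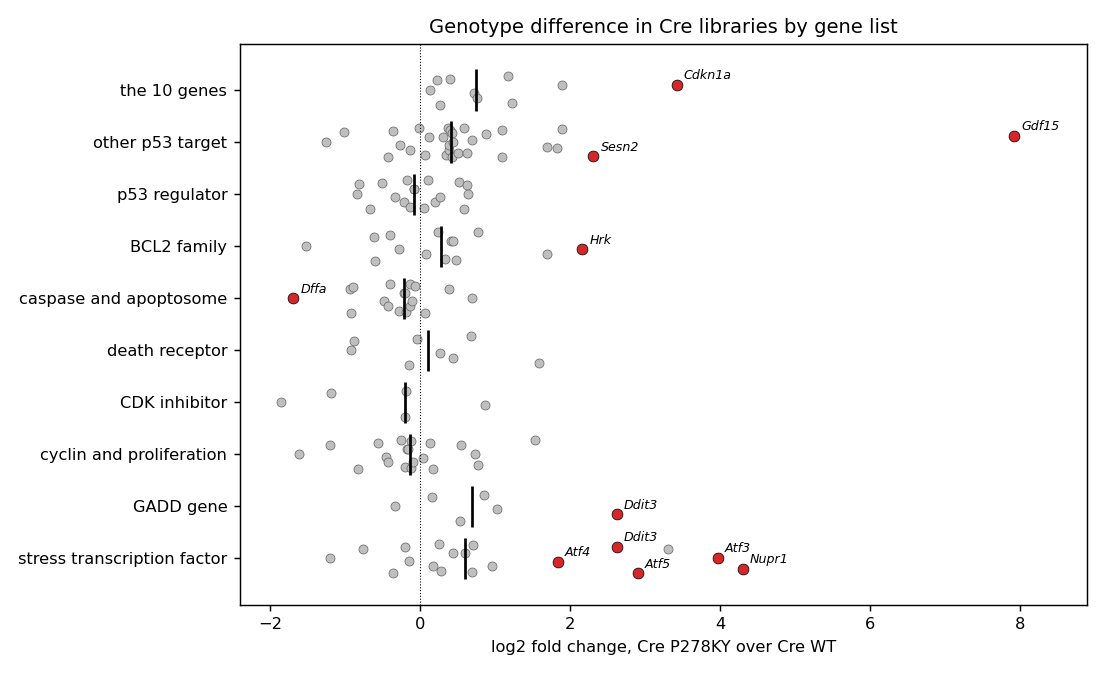
Log2 fold change of Cre P278KY over Cre WT for the genes tested in each list, with called genes in red and named, the others in grey, and a bar at the list's median. Of the 10 genes 1, 2 of 30 other p53 targets and 5 of 19 stress transcription factor genes were called higher, and vertical scatter within a list carries no value.

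Genes whose pattern was most like Cdkn1a were found by the Pearson correlation of log2 CPM, as a description, since libraries share group, pool and depth. Over the 18 libraries and 11435 genes the closest were Dapk1 (r = 0.96), a death-associated kinase, Inpp5f (0.92), a phosphoinositide phosphatase, Acot2 (0.92), a mitochondrial thioesterase, and Psat1 (0.90) and Phgdh (0.90), enzymes of serine synthesis. Over the 7 Cre libraries and 10948 genes they were Phgdh (0.997), Acot2 (0.993), Samd5 (0.986), Slc4a10 (0.985) and Gucy1a3 (0.985). Phgdh shared the low Cre WT level of Cdkn1a: it was at 51.6 ± 6.05 CPM in Cre P278KY, 5.12 ± 3.87 CPM in Cre WT, 16.6 ± 2.41 CPM in NoCre P278KY and 14.7 ± 4.17 CPM in NoCre WT. Acot2 had the same order, at 21.1 ± 1.69, 4.29 ± 2.30, 9.58 ± 1.99 and 9.22 ± 1.46 CPM.

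Of the other 9 members, Bcl2l11 was the closest to Cdkn1a by this measure, with r = 0.76 and rank 34 over the 18 libraries and r = 0.98 and rank 6 over the 7. Over the 7 Cre libraries Mdm2 (r = 0.56) ranked 1931, Gadd45a (0.52) 2154, Trp53 (0.47) 2433, Phlda3 (0.41) 2773, Ccng1 (0.36) 3063 and Bax (-0.15) 6070. Bbc3 in both sets, and Tnfrsf10b over the 7, were below the level required for this ranking, a mean log2 CPM above 1.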

How the data were processed

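Ribosome-associated RNA of 18 mouse spinal cords was sequenced, 1 library per mouse, at 8177817 to 24028695 counts each. Per the file headers, each deposited table gives expected counts, TPM and lengths in the layout of RSEM. The submitters' processing notes list Bowtie2 (version 2.2.0) and RSEM (version 1.2.12). The build and annotation behind them were not given in the sources used here. The deposited expected counts were rounded to whole numbers, which moved every library total by 0.00025% or less. TPM, deposited as transcripts per 1000000, served for levels between genes and for no test. Gene positions come from GENCODE M21 (GRCm38), where 37607 of 38924 identifiers were found.

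Groups follow the genotype labels. The genotype difference in Cre used the 7 Cre libraries; the other 4 comparisons used all 18, with a mean per group. The test was edgeR's quasi-likelihood test (version 4.0.16, R 4.3.3), two-sided, after filterByExpr and TMM scaling, with robust dispersion estimates, Benjamini-Hochberg adjustment over all genes tested and a threshold of 0.05. Adjusted p-values come from it unless another tool is named. Each standard error is the log2 difference divided by the root of its F statistic. CPM values use the scaling of the 18-library fit. The alternatives were other scalings, filters and tools (DESeq2 1.42.0, limma 3.58.1), pool, sex or mouse number as a term, single pools and left-out libraries; pool 2 alone was added after seeing the data. Whether mice come from separate litters is not given, so p-values measure the spread between these mice. Some mice of a group share the mouse number, the first number in the mouse name, whose meaning is not given. These are Cre P278KY 1 and 3, Cre WT 3 and 4, NoCre P278KY 2 and 3, NoCre P278KY 4 and 5, and NoCre WT 4 and 5. The tests treated them as independent. Intervals of read ratios cover counting error only, since amplified reads are not independent molecules.

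The 10 genes and the gene lists were chosen with earlier results of these data known. Named from each list were up to 4 genes with the smallest p in the Cre genotype difference, and the 5 genes most like Cdkn1a in each set of libraries with a mean log2 CPM above 1. 1 gene named by this rule is not reported here. The procedure was tested on simulated data. Of 34 pairs of libraries within groups, 0 were identical (r of log2 CPM 0.835 to 0.976).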

Additional observations from a re-analysis of the deposited data

Results flagged for a closer look

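Of 30 groups of 4 to 6 libraries examined for a library far from the rest, 5 held one, where chance gives about 1 in 20. Cdkn1a was at 44.9 CPM in NoCre P278KY 2, against 32.9 to 36.3 CPM in the other 5. Phlda3 was at 12.4 CPM in NoCre P278KY 6, against 8.13 to 9.47 CPM in the other 5. Bbc3 was at 1.81 CPM in Cre WT 2, against 0.603 to 0.623 CPM in the other 3. Tnfrsf10b was at 26.0 CPM in NoCre P278KY 6, against 7.98 to 13.2 CPM in the other 5, and at 26.3 CPM in NoCre WT 4, against 9.26 to 13.2 CPM in the other 4. The genotype difference of Cdkn1a in Cre libraries differed from that in NoCre libraries by 3.03 on the log2 scale (edgeR adjusted p = 0.0119).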

How the results depend on the processing

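The 3 mutant Cre mice, the lack of a Cre P278KY library in pool 2 and the 54 to 89 reads of Bbc3 and Tnfrsf10b per Cre group limit these comparisons. Of the alternatives for single genes, 1829 kept direction and side of the threshold, 40 lost a call, 76 gained one and 87 changed sign, and each sign change was of a difference that had not passed over both pools. Causes were not tested. Library-size scaling moves the all-gene median by over 0.1 in some comparisons; member values above are relative to TMM.

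For the Cre genotype difference (342 genes called) the count was 148 with library size only, 972 with DESeq2, 1677 with pool as a term, 553 with sex as a term and 1343 in pool 1 only, and 95 to 324 with 1 library left out (95, 121 and 126 without Cre P278KY 1, 2 and 3). Members called (1 in the main fit of 7 libraries) were 2 with no low-count filter, limma voom, pool as a term, the fit of all 18 libraries and pool 1 only, 3 with DESeq2 and sex as a term, and 0 to 1 with 1 library left out. For the interaction (112 genes, 1 member) the count was 5 genes and 0 members with library size only, 381 and 2 with DESeq2, 405 and 2 in pool 1 only, 0 members with no low-count filter, 2 members with pool as a term, and 41 to 250 genes and 0 to 1 members with a library left out (41, 60 and 48 without Cre P278KY 1, 2 and 3, 64 and 70 without Cre WT 3 and 4, 250 without Cre WT 1). For the NoCre genotype difference (4 genes) it was 2 with library size only, 28 with DESeq2, 2 in pool 2 only and 2 to 6 with a library left out. In pool 2 only, chosen after seeing the data, the WT enrichment had 4953 genes and 1 member (10227 and 6 over both pools).

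For mice of different groups that share a mouse number, the median correlation of their deviations from the group mean was -0.011 (12 pairs, -0.12 to 0.18). It was -0.0036 for 107 other pairs. For pairs of the same pool it was 0.017 and for pairs of different pools -0.010. The measure thus barely showed pool, and it cannot decide whether the numbers pair mice. With the mouse number as a replicate block the Cre genotype difference had 1664 genes and 3 members called and the NoCre one 2 genes, and these log2 differences changed sign: Mdm2 -0.28 and Cdkn2d 0.28 in the Cre genotype difference, Ccng1 0.086 in the P278KY enrichment, Mdm2 0.060 and Bax 0.24 in the interaction, and in NoCre Trp53 0.20, Mdm2 -0.16, Cdkn1a -0.12, Ccng1 -0.37, Gadd45a 0.38, Phlda3 0.40, Bcl2l11 -0.18 and Tnfrsf10b 0.30.

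Other sign changes on the log2 scale were these. With library size only, NoCre Trp53 was at 0.37, Gadd45a 0.25, Phlda3 0.038, Bbc3 0.13 and Tnfrsf10b 0.17, Mdm2 in the WT enrichment at 0.22 and Ccng1 in the interaction at -0.13. In pool 1 only, Bax was at -0.22 and Cdkn1c at 0.23 in the Cre genotype difference (-0.22 and 0.22 with pool as a term), Mdm2 at 0.80 and Bbc3 at -0.14 in the interaction, and NoCre Trp53 at 0.17, Mdm2 -0.10, Ccng1 -0.22, Phlda3 0.12, Bbc3 0.44 and Bcl2l11 -0.12. In pool 2 only, Mdm2, Cdkn1a and Ccng1 in the WT enrichment were at 0.47, 0.21 and 0.0072, and NoCre Gadd45a at 0.23 and Bax at -0.35. Mdm2 in the interaction was at 0.0099 with RLE size factors, 0.010 with DESeq2, 0.015 without ribosomal RNA genes and 0.0083 with pool as a term, and NoCre Trp53 at 0.0093 with no low-count filter and 0.015 with limma voom.

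Without NoCre WT 4 and 5 together, 2 genes were called in the NoCre genotype difference, NoCre Trp53 was at 0.063, Mdm2 -0.010, Ccng1 -0.21, Phlda3 0.21, Bbc3 0.012 and Tnfrsf10b 0.14, and Mdm2 in the interaction at 0.23. With 1 library left out, NoCre differences ran from -0.22 to 0.032 for Trp53, -0.048 to 0.32 for Ccng1, -0.42 to 0.031 for Gadd45a, -0.031 to 0.37 for Bax, -0.97 to 0.069 for Bbc3, -0.10 to 0.21 for Bcl2l11 and -0.55 to 0.051 for Tnfrsf10b; the interaction from -0.21 to 0.18 for Mdm2, -0.065 to 0.31 for Ccng1 and -0.26 to 0.12 for Bax; the WT enrichment of Mdm2 from -0.29 to 0.066, its P278KY enrichment from -0.24 to 0.011, and the Cre difference of Bax from -0.057 to 0.30.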
